A study of Homo sapiens with 12 samples.

Results

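The subject is 46 interferon-stimulated genes, the genes that cells switch on when interferon or viral RNA is sensed. They were found by gene symbol in a table of 18798 genes measured by RNA sequencing. The rule that picks them uses no measured value, but the list was chosen with earlier results of these data known. All 46 were among the 16146 genes tested, those whose signal was 1 or more in at least 2 of the 12 libraries. The cells were established human cancer lines, SSP-25, RBE and HuH-28, derived from intrahepatic cholangiocarcinoma (ICC), a cancer of the bile ducts within the liver. Each line received LKB1 siRNA or scrambled control siRNA by lipid transfection and was harvested at 48 h, which gave 6 groups of line and siRNA with 2 libraries each. LKB1, the product of STK11, is a kinase and tumor suppressor, and the study knocked it down to ask which genes depend on it in ICC cells. Every library came from transfected cells, so the effect of transfection itself cannot be told apart from the level of a line. HuH-28 was grown in MEM and the other lines in RPMI1640, so line and medium cannot be told apart either. The labels do not say whether the libraries of a group came from separate cultures. A figure legend of the study gives the replicate numbers as numbers of a test, without saying what a test was. P-values therefore measure the spread between these libraries, which may be technical.

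Double-stranded RNA is sensed in the cytoplasm by RIG-I and MDA5, which signal through the adaptor MAVS to switch on type I and type III interferon. Secreted interferon binds its receptors, activates the JAK kinases, and assembles a complex of STAT proteins with IRF9 that binds the interferon-stimulated response element in the promoters of the target genes. Epithelial cells, those of the bile duct included, make and answer these signals, and many carcinoma lines keep a part of the programme on without added interferon.

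The response element is shown here because it is the DNA element that this complex binds, and it was not used to choose the genes. Its core was searched as GAAA, any 2 bases and GAAA, on both strands, in RefSeq promoter windows of 300 bases (250 before and 50 after a start site, GRCh38.p14), and overlapping matches were each kept. Of the 46 genes, 37 had an entry, with 48 windows, and 30 windows (62.5%) held the core, against 1255 of 35116 windows of all genes (3.57%). The gamma-activated site, searched as TTC, any 3 bases and GAA, reads the same on both strands and was in 27.1% of the members' windows and 7.66% of all windows. The stretches below are 5′ to 3′ along the strand of the gene, with each match in capitals, and a core on the opposite strand reads TTTC, any 2 bases and TTTC. The genes listed first fell with LKB1 siRNA in each line, and the last 4 rose on average over the lines.
IFIT3, chr10:89327865-89327894, plus strand: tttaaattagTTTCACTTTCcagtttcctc
IFIH1, chr2:162318686-162318715, minus strand: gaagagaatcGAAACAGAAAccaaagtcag
IFI44, chr1:78649761-78649790, plus strand: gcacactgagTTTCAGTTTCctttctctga
DDX60, chr4:168318786-168318815, minus strand: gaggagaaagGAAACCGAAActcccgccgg
PARP9, chr3:122564322-122564351, minus strand: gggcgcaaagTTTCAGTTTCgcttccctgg
PARP14, chr3:122680800-122680829, plus strand: tccaggaaacGAAAGCGAAAgagtcaaagt
ISG15, chr1:1013377-1013406, plus strand: gcctcggGAAAGGGAAACCGAAActgaagc
IFI6, chr1:27672266-27672295, minus strand: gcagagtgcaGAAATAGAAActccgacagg
IFITM1, chr11:314024-314053, plus strand: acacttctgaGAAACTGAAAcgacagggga
IFITM3, chr11:320885-320914, minus strand: agGAAAAGGAAActgttgaGAAACCGAAAc

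The core was in genes that moved in either direction and in genes that did not pass the test. It was in 14 of 26 windows of members that fell on average over the lines (53.8%), in 4 of 6 windows of members that rose (66.7%) and in 12 of 16 windows of the members that did not pass (75.0%). All 6 of the genes with an entry that fell in each line held it. These shares describe a match of letters and were not tested.

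The values are the authors' normalized reads per kilobase of transcript, called the level here, and the table holds no read counts, so the depth behind a value is unknown. A library's values summed to between 9920000 and 11700000. STK11 had levels of 223 and 206 in HuH-28 with LKB1 siRNA and 698 and 600 with control siRNA, 130 and 156 against 485 and 430 in RBE, and 61.8 and 72.8 against 464 and 459 in SSP-25. The siRNA groups were far apart in STK11 in each line (log2 fold change ± SE of -1.59 ± 0.11 for HuH-28, -1.68 ± 0.11 for RBE and -2.77 ± 0.11 for SSP-25). Of the biliary and epithelial markers, KRT7 had a mean level of at least 2440 and SOX9 of at least 198 in every group. KRT19 and EPCAM were near absent from HuH-28, with means of 14.4 and 0.491 with LKB1 siRNA and 10.4 and 0.956 with control siRNA. CDH1 had means of 94.5 with LKB1 siRNA against 31.6 with control siRNA in HuH-28. Its means were 116 against 202 in RBE and 46.9 against 41.1 in SSP-25. Of the fibroblast markers, COL1A1 had high means in HuH-28 (17600 with LKB1 siRNA, 13400 with control siRNA) and in SSP-25 (11100 and 6740), and DCN was high in HuH-28 (2210 and 2500) and at a mean of 0.407 or less in the groups of the other lines. Among leukocyte markers, CD3E was at 0 in every library and PTPRC did not exceed 6.59, whereas CD14 reached 28.8 and CD68 723 to 1970. Endothelial CDH5 did not exceed 0.722, PECAM1 did not exceed 12.8, and of the hepatocyte markers ALB did not exceed 1.34 and APOA1 did not exceed 3.6, whereas TTR reached 18.7, with means of 14.1 with LKB1 siRNA and 13.3 with control siRNA in RBE.

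Averaged over the 3 lines, more of the interferon-stimulated genes were lower with LKB1 siRNA than were higher. Every comparison is with scrambled siRNA, so an effect of the siRNAs other than on LKB1 cannot be told apart from loss of LKB1. Of 46 members, 21 fell and 8 rose at an adjusted p under 0.05 (limma on log2 levels, adjusted over all genes tested), and 17 did not pass. Among all 16146 genes, 25.2% fell and 27.3% rose. The median log2 fold change was -0.26 over the members and 0.03 over all genes. The changes were small. Members past an absolute log2 fold change of 1 as well were RSAD2, IFI27 and USP18, each lower, a rule that 1.09% of all genes met as lower and 3.13% as higher. The members that fell included the RNA-binding proteins IFIT1, IFIT2, IFIT3, DDX60 and OAS2 and the sensors IFIH1 and DHX58. They also included the ISG15 enzymes USP18 and UBE2L6, and HERC6, PARP9 and PARP14. Those that rose were OASL, IFI6, ISG15, DDX58, IRF9, IFITM1, IFITM3 and IFITM2.

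**Figure D1:**
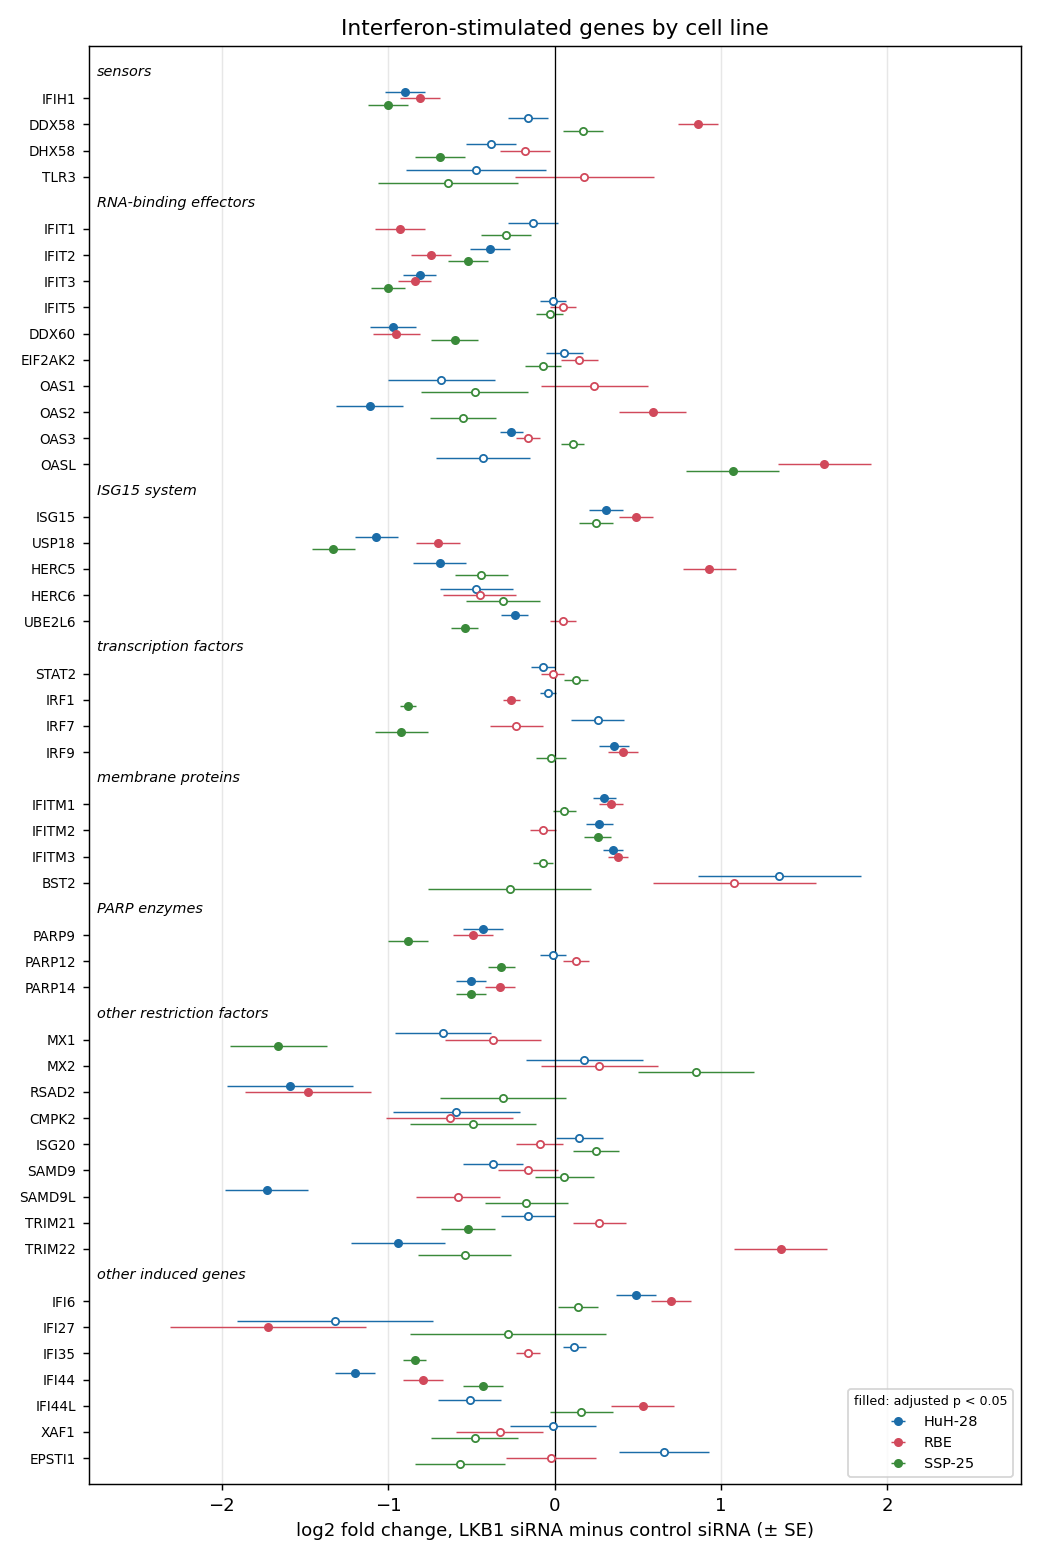
Log2 fold change, LKB1 siRNA minus control siRNA, of the 46 interferon-stimulated genes by role, with a point for each line and bars for the standard error, filled where the adjusted p was under 0.05. IFIT3, IFIH1, DDX60, USP18, IFI44, PARP9, PARP14 and IFIT2 are filled and left of 0 in each line, whereas OASL, TRIM22 and HERC5 lie on either side of 0 in different lines.

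By line, 15 members fell and 6 rose in HuH-28 (15.5% and 14.3% of all genes), 12 fell and 11 rose in RBE (18.6% and 22.1%), and 16 fell and 2 rose in SSP-25 (21.1% and 21.1%). The members' median log2 fold change was -0.31 for HuH-28, -0.08 for RBE and -0.38 for SSP-25, beside 0.01, 0.01 and 0.02 over all genes. The share of members that rose in RBE was thus near that of all genes. After quantile normalization the split in RBE was 16 lower and 9 higher. The count for HuH-28 rested on a control library: without its control replicate 1, 11 members passed (10 lower and 1 higher) in place of 21, and 10 passed when HuH-28 was fitted alone. With 2 libraries against 2, no exact two-sided test within a line can go below 0.333, so the tests by line rest on a spread pooled over the 6 groups.

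Among the members, 8 fell in each of the 3 lines: IFIT2, IFIT3, DDX60, IFIH1, USP18, IFI44, PARP9 and PARP14. No member rose in each line. Over all genes, 7.44% fell and 6.94% rose in each line.

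IFIT3 belongs to a family of interferon-induced proteins with tetratricopeptide repeats that bind viral RNA, and it partners IFIT1. Its level was 56.4 and 57.2 with LKB1 siRNA in HuH-28, against 103 and 97.1 with control siRNA, 89 and 85.4 against 165 and 149 in RBE, and 130 and 113 against 227 and 260 in SSP-25. The siRNA groups did not overlap in any line, and the fall was of like size in each (log2 fold change ± SE of -0.81 ± 0.10 for HuH-28, -0.84 ± 0.10 for RBE and -1.0 ± 0.10 for SSP-25, adjusted p = 0.53 for a difference between lines). On average it fell by 0.89 ± 0.06 on the log2 scale (adjusted p = 8.8e-07), and the exact two-sided permutation of siRNA labels within lines gave p = 0.00926, the smallest that its arrangements allow. The other 7 members that fell in each line had the same p in that exact test. Any gene whose siRNA groups are apart in the same direction in each line must get this p. It therefore adds no support to a choice made on falls in each line. DHX58, HERC6, IRF1, MX1 and SAMD9L, and ISG15 as higher, had it as well. The share of all genes with this p was not worked out, so it cannot be said whether so many members are unusual.

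IFIT2, a neighbour of IFIT3 on chromosome 10, had levels of 51.8 and 55.2 with LKB1 siRNA against 75.5 and 65.1 with control siRNA in HuH-28, 60.9 and 52.1 against 98.5 and 90.3 in RBE, and 58.9 and 52.5 against 75.5 and 84.4 in SSP-25. Every LKB1 siRNA library was below every control library of its line (average log2 fold change -0.55 ± 0.07, adjusted p = 0.00011). In GENCODE v29, exons of IFIT2 overlap those of LIPA, a lysosomal lipase gene on the opposite strand, and the library kit does not mark strand, so reads there cannot be told apart. LIPA rose, with an average log2 fold change of 0.41 ± 0.03. IFIT1, which binds RNA that lacks the methyl marks of host caps, had levels of 24.2 and 20.2 against 44.8 and 40.7 in RBE, where it fell (-0.93 ± 0.15, adjusted p = 0.00073). In HuH-28 and SSP-25 it did not pass (-0.13 and -0.29), and its change differed between lines (adjusted p = 0.036). IFIT5, the remaining family member, was between 103 and 162 in every library and had an average log2 fold change of 0 ± 0.05.

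DDX60, a helicase of the antiviral response, had levels of 43.9 and 38.3 with LKB1 siRNA against 90.3 and 72.3 with control siRNA in HuH-28, 42 and 41.6 against 80.8 and 82 in RBE, and 58.3 and 70.4 against 92.6 and 102 in SSP-25. The control levels of the 3 lines lay close together, and the LKB1 siRNA libraries were lower in each of them. The average log2 fold change was -0.84 ± 0.08 (adjusted p = 1.1e-05), and the lines were not shown to differ in it (adjusted p = 0.25).

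The sensors of RNA did not move as a group. IFIH1 encodes MDA5, the sensor of long double-stranded RNA. Its level was 53.4 and 47.3 with LKB1 siRNA against 99.5 and 89.4 with control siRNA in HuH-28, 25.5 and 28.1 against 49.7 and 44.8 in RBE, and 37 and 35.7 against 71.8 and 74 in SSP-25. The groups did not overlap in any line, and the lines were not shown to differ in the fall (adjusted p = 0.64, average log2 fold change -0.90 ± 0.07, adjusted p = 2e-06). DDX58 encodes RIG-I, the sensor of short RNA with a 5′ triphosphate. In RBE it was at 131 and 134 with LKB1 siRNA, against 78.3 and 67.3 with control siRNA, a rise of 0.86 ± 0.12 on the log2 scale (adjusted p = 0.00025). In HuH-28 DDX58 was at 76.8 and 72.1 against 91.3 and 75.5, where the groups overlapped, and in SSP-25 at 122 and 107 against 98.9 and 104, where they did not overlap but the difference did not pass (adjusted p = 0.27). The change of DDX58 differed between lines (adjusted p = 0.0046). DHX58, which encodes LGP2, a helicase that modulates signalling by the other sensors, fell on average (-0.42 ± 0.09, adjusted p = 0.0023). TLR3, the endosomal sensor of double-stranded RNA, did not pass (-0.31 ± 0.24). In SSP-25 its groups did not overlap (72.5 and 66.3 against 106 and 112, -0.64 ± 0.42). That SE was pooled with HuH-28 libraries near 0.

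**Figure D2:**
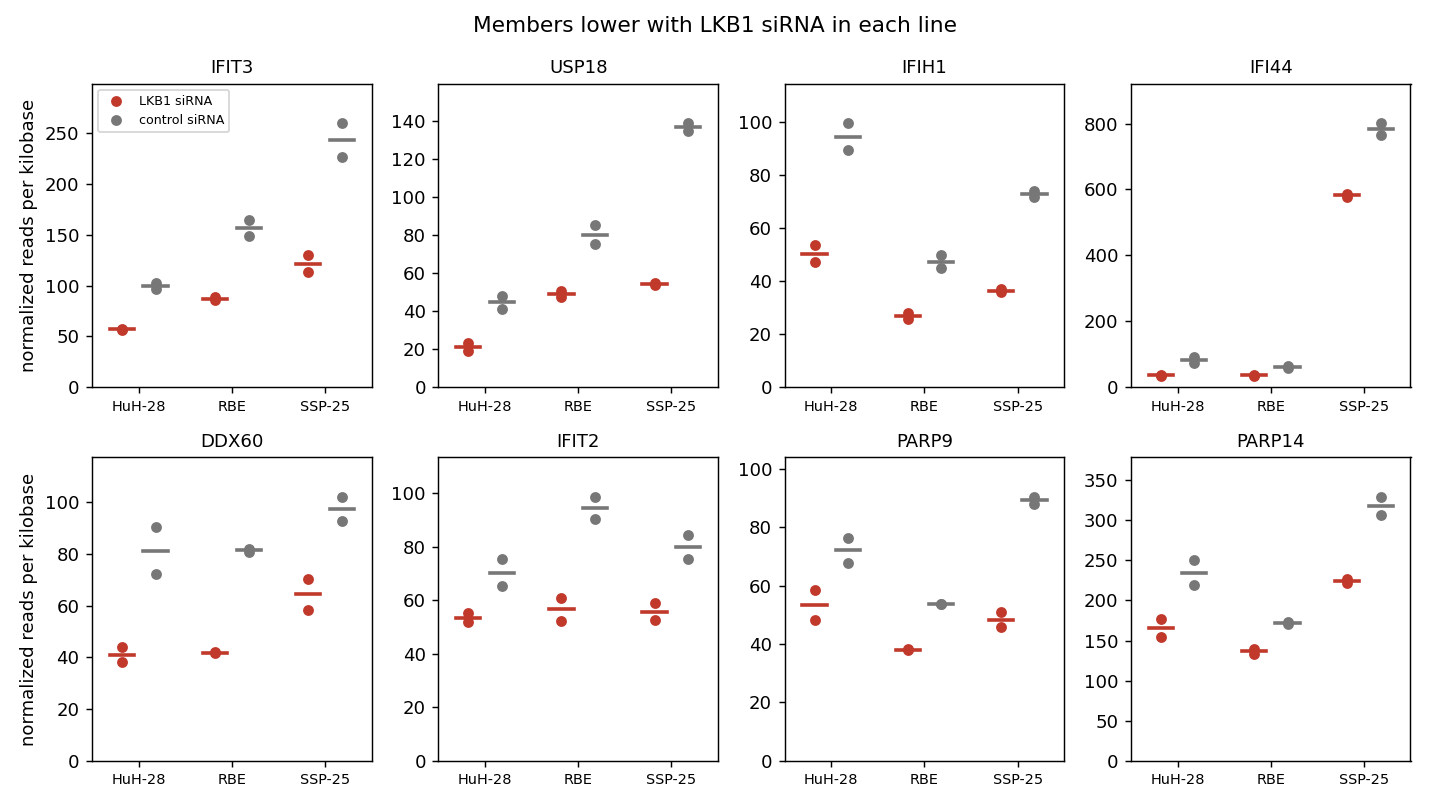
Level (normalized reads per kilobase) of the 8 members that fell in each line, with a point for each library, LKB1 siRNA left of control siRNA within a line, and a bar at each mean. In every panel both LKB1 siRNA libraries of a line lie below both of its control libraries, for IFI44 in SSP-25 at 578 and 587 below 801 and 765.

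The other RNA-binding effectors are the oligoadenylate synthetases, which make the messenger that activates RNase L, and the kinase PKR, encoded by EIF2AK2. OAS2 had levels of 3.44 and 2.75 with LKB1 siRNA against 6.99 and 7.45 with control siRNA in HuH-28, 1.29 and 1.18 against 0.62 and 0.685 in RBE, and 33.9 and 31.9 against 48.7 and 47.7 in SSP-25. It was thus lower in HuH-28 (-1.11 ± 0.20, adjusted p = 0.0025) and higher in RBE (0.59 ± 0.20, adjusted p = 0.039), where it was between 0.62 and 1.29 in every library, and in SSP-25 the log2 fold change of -0.55 had an adjusted p of 0.051. OASL, an oligoadenylate synthetase-like protein without that enzyme activity that augments RIG-I signalling, rose in RBE (9.14 and 7.59 against 1.83 and 3.03) and in SSP-25 (16.9 and 25.8 against 7.87 and 11.9). In HuH-28 OASL was at 52.7 and 50.3 against 66 and 73.8, a difference that did not pass (adjusted p = 0.28). OAS3 fell in HuH-28 (-0.26 ± 0.07), whereas OAS1 and EIF2AK2 passed in no line.

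ISG15 is a ubiquitin-like protein that is both conjugated to other proteins and secreted, and its conjugation machinery is itself induced by interferon. Its level was 1679 and 1813 with LKB1 siRNA against 1365 and 1452 with control siRNA in HuH-28, 162 and 198 against 137 and 118 in RBE, and 1004 and 942 against 830 and 806 in SSP-25. ISG15 was above the controls in every line, and passed in HuH-28 and RBE (average log2 fold change 0.35 ± 0.06, adjusted p = 0.00047). USP18 removes ISG15 from proteins and blocks signalling at the type I interferon receptor. It had levels of 18.8 and 23.4 with LKB1 siRNA against 41.3 and 48.1 with control siRNA in HuH-28, 47.6 and 50.7 against 85.4 and 75.3 in RBE, and 54.6 and 54 against 135 and 139 in SSP-25. USP18 had a log2 fold change of -1.07 ± 0.13 in HuH-28, of -0.70 ± 0.13 in RBE, of -1.33 ± 0.13 in SSP-25 and of -1.03 ± 0.08 on average (adjusted p = 1.9e-06). Of the 40-base windows of its transcript, 26.9% also occur in another annotated gene, mainly USP41, so reads may be shared.

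HERC5, the main ISG15 ligase in human cells, had levels of 44.7 and 41.7 with LKB1 siRNA against 71.7 and 68 with control siRNA in HuH-28, 1.12 and 0.886 against 0.268 and 0.303 in RBE, and 45.3 and 43.6 against 60.3 and 60.2 in SSP-25. It fell in HuH-28 (-0.69 ± 0.16, adjusted p = 0.0091) and passed as higher in RBE, where it was at 1.12 or less in every library (0.93 ± 0.16, adjusted p = 0.0011). The lines differed in the change (adjusted p = 0.0016). UBE2L6, the conjugating enzyme for ISG15, fell in HuH-28 (572 and 635 against 681 and 745) and in SSP-25 (656 and 670 against 997 and 931) and not in RBE (339 and 359 against 358 and 318). HERC6, a relative of HERC5, fell on average (-0.41 ± 0.13, adjusted p = 0.02), passed in no line alone and was not shown to differ between lines (adjusted p = 0.91).

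The transcription factors that drive the programme moved little or differently by line. IRF1, a factor induced by interferon gamma and by inflammatory signals, had levels of 324 and 317 with LKB1 siRNA against 327 and 334 with control siRNA in HuH-28, 174 and 165 against 199 and 206 in RBE, and 203 and 198 against 376 and 365 in SSP-25. IRF1 fell in SSP-25 (-0.88 ± 0.05, adjusted p = 1.7e-06) and less in RBE (-0.26 ± 0.05, adjusted p = 0.004), did not pass in HuH-28 (-0.04 ± 0.05), and had the smallest p of all members for a difference between lines (adjusted p = 0.00025). IRF7, which amplifies type I interferon production, fell in SSP-25 (43.9 and 38.4 against 85.8 and 71.5) and in no other line. IRF9, the DNA-binding part of the interferon-induced complex, rose in HuH-28 (358 and 360 against 251 and 311) and in RBE (292 and 297 against 227 and 217), and in SSP-25 its groups overlapped (log2 fold change -0.02 ± 0.09). Every 40-base window of IRF9 is also in an annotated readthrough transcript, so its reads cannot be told apart from that transcript. STAT2, the partner of IRF9, passed in no line (average log2 fold change 0.02 ± 0.04).

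**Figure D3:**
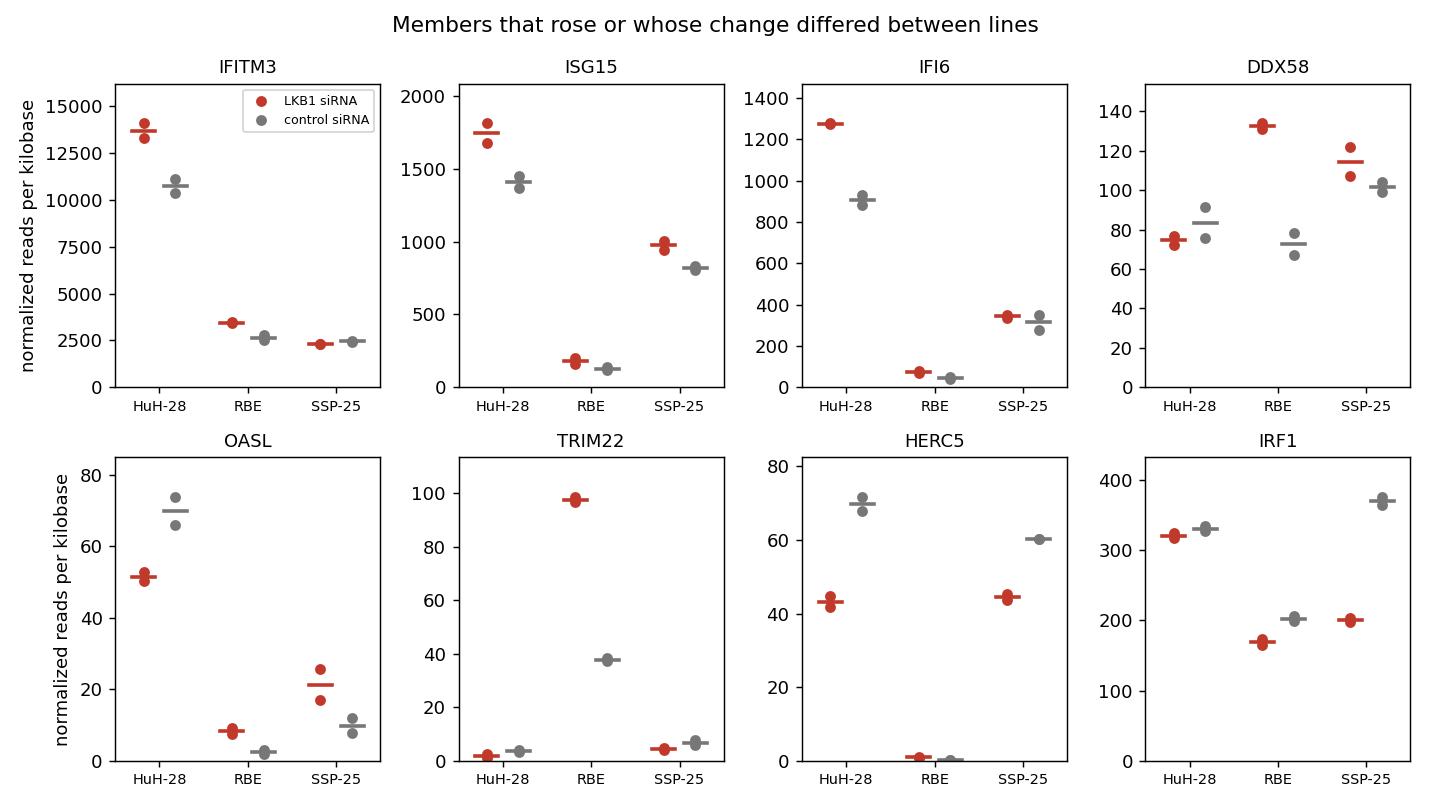
Level (normalized reads per kilobase) of 8 members that rose or whose change differed between lines, with a point for each library, LKB1 siRNA left of control siRNA within a line, and a bar at each mean. TRIM22 in RBE lies at 96.8 and 98.7 with LKB1 siRNA above 37.3 and 38.5 with control siRNA, whereas IRF1 in SSP-25 lies at 203 and 198 below 376 and 365.

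The 4 membrane proteins included the members with the highest levels. On average over the lines 3 of them rose and none fell, where 27.3% of all genes rose and 25.2% fell. So few genes were not tested as a set, and the 3 that rose share sequence. The IFITM proteins sit in plasma and endosomal membranes and hinder the fusion of viruses with the cell. IFITM3 had levels of 13298 and 14102 with LKB1 siRNA against 10356 and 11106 with control siRNA in HuH-28, 3484 and 3418 against 2776 and 2523 in RBE, and 2321 and 2325 against 2435 and 2455 in SSP-25. It rose in HuH-28 (0.35 ± 0.06, adjusted p = 0.0021) and RBE (0.38 ± 0.06, adjusted p = 0.00079) and did not pass in SSP-25 (-0.07 ± 0.06), and its change differed between lines (adjusted p = 0.0067). IFITM1 had levels of 2613 and 2716 with LKB1 siRNA against 2051 and 2272 with control siRNA in HuH-28, 735 and 679 against 591 and 526 in RBE, and 475 and 485 against 445 and 476 in SSP-25. Its groups were apart in HuH-28 and RBE, where it rose, and overlapped in SSP-25, where it did not pass. IFITM2 had levels of 2778 and 2827 against 2240 and 2412 in HuH-28, 1554 and 1498 against 1689 and 1512 in RBE, and 358 and 308 against 268 and 287 in SSP-25, and rose in HuH-28 and SSP-25. The 3 transcripts share sequence, with 44.2% of the 40-base windows of IFITM1, 19.1% of IFITM2 and 29.1% of IFITM3 found in another gene, so the split of reads between them is uncertain. BST2, the tether that holds budding virus particles at the surface, did not pass in any line, with 18.1 and 14.6 against 3.26 and 11 in HuH-28 (log2 fold change 1.35 ± 0.49, adjusted p = 0.067).

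PARP9 and PARP14 are ADP-ribosyltransferases of the macrodomain group that modulate interferon signalling. PARP9 had levels of 58.6 and 48.3 with LKB1 siRNA against 76.3 and 67.7 with control siRNA in HuH-28, 38.2 and 37.9 against 53.6 and 53.6 in RBE, and 50.9 and 45.8 against 88 and 90.3 in SSP-25. PARP14 had levels of 177 and 154 against 250 and 219 in HuH-28, 140 and 133 against 173 and 171 in RBE, and 222 and 227 against 307 and 329 in SSP-25. Neither gene's groups overlapped in any line, and the average log2 fold changes were -0.60 ± 0.07 for PARP9 (adjusted p = 4.5e-05) and -0.44 ± 0.05 for PARP14 (adjusted p = 3.9e-05). Exons of PARP9 overlap those of its partner DTX3L, an E3 ligase gene on the opposite strand, which also fell (average log2 fold change -0.52 ± 0.04), and reads there cannot be told apart. PARP12 fell in SSP-25 (-0.32 ± 0.08, adjusted p = 0.0096) and in no other line.

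Of the 9 other restriction factors, 4 fell and none rose on average, where 25.2% of all genes fell and 27.3% rose. MX1, a dynamin-like GTPase that traps viral ribonucleoproteins, fell in SSP-25 (4.39 and 5.2 against 14.3 and 18.4, log2 fold change -1.66 ± 0.29, adjusted p = 0.0012). SAMD9L, an antiviral protein that also restrains growth, fell in HuH-28 (0.946 and 1.55 against 4.87 and 5.54, log2 fold change -1.73 ± 0.25) and not in SSP-25, the line where its level was high (153 and 153 against 173 and 172). RSAD2, which encodes viperin, fell in HuH-28 (0.33 and 0.464 against 2.32 and 2.08) and RBE (0.848 and 2.07 against 4.12 and 5.32), and it was near 0 in SSP-25 (0.0176 and 0 against 0.00502 and 0.287). CMPK2, its neighbour on chromosome 2, whose exons overlap those of RSAD2 on the opposite strand, fell on average at the edge of the threshold (-0.57 ± 0.22, adjusted p = 0.05 after rounding). CMPK2, IFI27, MX1 and RSAD2 were below 20 in every library, so their fold changes rest on low levels and lean on the 0.5 added before taking logs. TRIM22, a ubiquitin ligase that restricts several viruses, rose in RBE (96.8 and 98.7 against 37.3 and 38.5, log2 fold change 1.36 ± 0.28, adjusted p = 0.0034) and fell in HuH-28 at low levels (1.1 and 2.46 against 4.03 and 3.37). TRIM21, an antibody receptor and ubiquitin ligase of the cytosol, fell in SSP-25 (-0.52 ± 0.16), while MX2, SAMD9 and ISG20 passed in no line.

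Of the 7 other induced genes, 3 fell and 1 rose on average, beside the same shares of all genes (25.2% and 27.3%). IFI44, a GTP-binding-like protein of the interferon response, had levels of 33.4 and 37.5 with LKB1 siRNA against 72.9 and 91.9 with control siRNA in HuH-28, 33.7 and 37.1 against 58.2 and 64.7 in RBE, and 578 and 587 against 801 and 765 in SSP-25. The groups were apart in each line, and the fall was deepest in HuH-28 (-1.20 ± 0.12) and least in SSP-25 (-0.43 ± 0.12), the line with the highest level (adjusted p = 0.018 for the difference between lines). IFI44L, its neighbour, did not follow it: it rose in RBE (0.53 ± 0.19, adjusted p = 0.046) at levels of 2.53 and 3.72 against 1.96 and 1.97 and passed in no other line. IFI35 had levels of 411 and 422 against 373 and 391 in HuH-28, 251 and 245 against 299 and 257 in RBE, and 314 and 307 against 551 and 561 in SSP-25. It fell in SSP-25 alone (-0.84 ± 0.07, adjusted p = 1.1e-05), the lines differed (adjusted p = 0.00044), and its average fall of 0.29 ± 0.04 rested on that line, with an average log2 fold change of -0.02 without it (adjusted p = 0.81). IFI6, a small membrane protein that protects cells from death during infection, rose in HuH-28 (1278 and 1274 against 884 and 928) and RBE (78.8 and 69.3 against 41.1 and 49.7), with an average log2 fold change of 0.45 ± 0.07 (adjusted p = 0.00028). IFI27 fell on average (-1.11 ± 0.34, adjusted p = 0.02), whereas XAF1 and EPSTI1 passed in no line. The siRNA groups of EPSTI1 did not overlap in HuH-28 (153 and 164 against 100 and 101) or in SSP-25 (65 and 66.4 against 95.4 and 99.8). Its SE of 0.27 in each line was pooled with RBE libraries between 0 and 0.334.

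The change differed between the 3 lines for 15 of the 46 members, a share near that of all genes (28.2%). Among these, HERC5, TRIM22 and OAS2 rose in RBE and fell in HuH-28, whereas IRF1, IFI35 and IRF7 had their lowest log2 fold change in SSP-25. HERC5 and OAS2 did not exceed 1.29 in RBE, and TRIM22 did not exceed 4.03 in HuH-28, so these changes rest on low levels.

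Other genes of the interferon pathway were described from a list of 68 genes outside the 46, of which 60 could be tested. On average 20 rose and 21 fell, where 27.3% of all genes rose and 25.2% fell, and their median log2 fold change was -0.01, beside 0.03 over all genes. Of the ligands, IFNK, IFNG, IL28A and IL28B were at 0 in every library, and IFNB1 did not exceed 1.24. IFNE, an interferon of epithelia that is not induced by viral sensing, was at 17.9 and 13.9 with LKB1 siRNA in SSP-25, against 2.89 and 2.73 with control siRNA (log2 fold change 2.30 ± 0.31, adjusted p = 0.00026), and was at or near 0 in RBE.

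Of the 60 pathway genes tested, 5 rose in each line, a share near that of all genes (6.94%). In each line 2 fell, where 7.44% of all genes did. Receptors and adaptors were among those that rose. IL10RB, a subunit shared by the receptors of type III interferon and of IL-10, had levels of 604 and 601 with LKB1 siRNA against 197 and 215 with control siRNA in HuH-28, 487 and 521 against 176 and 176 in RBE, and 552 and 534 against 173 and 164 in SSP-25. The groups were far apart, and the average log2 fold change was 1.58 ± 0.04 (adjusted p = 1.1e-09), between 1.51 and 1.69 by line. The chain specific to type III interferon, IL28RA, did not pass, and was at 0.36 or less in HuH-28. MAVS, the mitochondrial adaptor of MDA5 and RIG-I, had levels of 468 and 413 against 292 and 279 in HuH-28, 393 and 413 against 238 and 242 in RBE, and 350 and 368 against 206 and 215 in SSP-25. MAVS was thus higher in each line (0.71 ± 0.04 on average, adjusted p = 3.2e-07), where its sensor IFIH1 was lower. MYD88, the adaptor of most Toll-like receptors, had levels of 436 and 465 against 311 and 349 in HuH-28, 476 and 487 against 329 and 314 in RBE, and 487 and 496 against 360 and 330 in SSP-25 (0.51 ± 0.04, adjusted p = 2.9e-06). JAK1 and TRIM25, a ubiquitin ligase that acts in RIG-I signalling, also rose in each line (0.28 ± 0.04 and 0.30 ± 0.03).

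IFNAR2, a chain of the type I interferon receptor, had levels of 211 and 213 with LKB1 siRNA against 176 and 176 with control siRNA in HuH-28, 461 and 474 against 232 and 239 in RBE, and 137 and 140 against 141 and 138 in SSP-25. Its average rise of 0.41 ± 0.03 came mainly from RBE (0.99 ± 0.05), and without that line the average was 0.13 (adjusted p = 0.063). IFNAR1, the other chain, did not pass (0.03 ± 0.06). Among further targets of interferon outside the 46, SP110, a nuclear body protein, had levels of 105 and 117 against 150 and 153 in HuH-28, 42 and 44.1 against 83.7 and 67.9 in RBE, and 70.8 and 76.9 against 156 and 131 in SSP-25. PLSCR1, a phospholipid scramblase with antiviral activity, had levels of 279 and 278 against 428 and 336 in HuH-28, 328 and 318 against 396 and 423 in RBE, and 230 and 232 against 430 and 441 in SSP-25. Both fell in each line (average log2 fold change -0.73 ± 0.07 for SP110 and -0.57 ± 0.05 for PLSCR1), with no overlap between the siRNA groups.

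**Figure D4:**
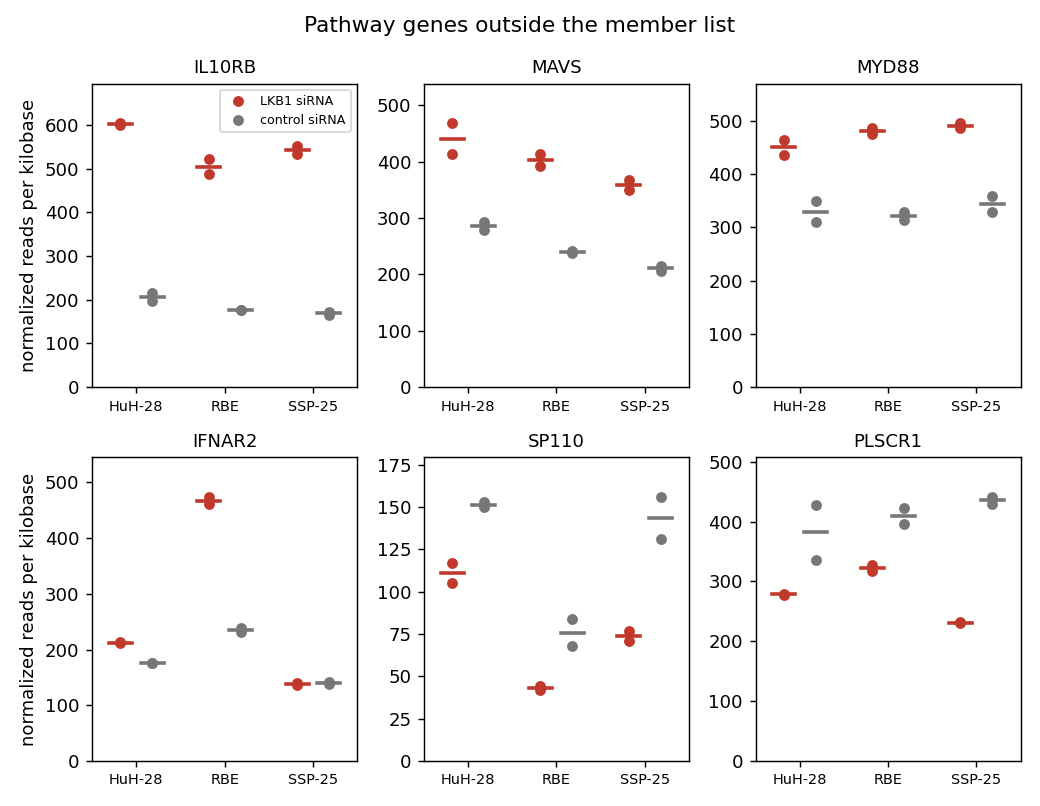
Level (normalized reads per kilobase) of 6 genes of the interferon pathway outside the 46 members, with a point for each library, LKB1 siRNA left of control siRNA within a line, and a bar at each mean. IL10RB, MAVS and MYD88 lie higher with LKB1 siRNA in each line, IFNAR2 rises mainly in RBE (461 and 474 against 232 and 239), and SP110 and PLSCR1 lie lower in each line.

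The lines differed from each other in the level of these genes. In the control siRNA libraries, 24 members were highest in SSP-25, 15 in HuH-28 and 7 in RBE, and 25 were lowest in RBE. These ranks were not worked out for all genes, and they include members not shown to differ between lines. With a threshold of 1 on the absolute log2 difference and of 0.05 on the adjusted p, 16 members were higher and 7 lower in HuH-28 than in RBE (22.2% and 19.7% of all genes), 9 higher and 12 lower in HuH-28 than in SSP-25 (20.6% and 17.4%), and 5 higher and 18 lower in RBE than in SSP-25 (18.9% and 18.5%). The median log2 difference over the members was 0.43 for HuH-28 minus RBE, -0.23 for HuH-28 minus SSP-25 and -0.82 for RBE minus SSP-25, beside 0.01, 0 and 0 over all genes.

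Members at or near 0 in a line had the widest ranges. EPSTI1, an interferon target named for epithelial-stromal interaction, was at 100 and 101 in HuH-28 control libraries, at 0 and 0.334 in RBE, and at 95.4 and 99.8 in SSP-25. HuH-28 and SSP-25 were not shown to differ in it (adjusted p = 0.9 for their log2 difference of 0.04 ± 0.27), while RBE was near 0 with either siRNA. TLR3 was at 1.01 and 0 in HuH-28, at 27.2 and 32.5 in RBE, and at 106 and 112 in SSP-25, so HuH-28 had little mRNA of this sensor. HERC5 with control siRNA was at 71.7 and 68 in HuH-28 and 60.3 and 60.2 in SSP-25, levels that were not shown to differ (adjusted p = 0.25), and at 0.268 and 0.303 in RBE.

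XAF1, a proapoptotic antagonist of XIAP, was at 4.78 and 4.43 in HuH-28, at 0 and 0.296 in RBE, and at 50.5 and 56.9 in SSP-25. MX2, which blocks nuclear entry of retroviral genomes, was at 72.4 and 63.1 in HuH-28, at 0.318 and 1.42 in RBE, and at 2.5 and 2.03 in SSP-25, so among the 3 lines it was high in HuH-28. OAS2, given above, stood in the order SSP-25, HuH-28, RBE, each step past the threshold. On the log2 scale with 0.5 added, the ranges over lines were 7.29 for EPSTI1, 6.97 for TLR3, 6.48 for HERC5, 6.42 for XAF1, 5.76 for MX2 and 5.40 for OAS2. These are differences of log2 levels that the added 0.5 holds down where a line is near 0. Of the 40-base windows of XAF1, 69.7% also occur in another annotated gene, mainly PRAL.

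The order of lines was not the same for the abundant members. IFITM3, IFITM2 and IFITM1, the members with the highest mean level, were highest in HuH-28. HuH-28 control libraries exceeded RBE by 2.02 ± 0.06 and SSP-25 by 2.13 ± 0.06 on the log2 scale in IFITM3, while RBE and SSP-25 did not pass (0.11 ± 0.06, adjusted p = 0.12). ISG15 stood in the order HuH-28, SSP-25 and RBE, with 1365 and 1452, 830 and 806, and 137 and 118. At the other end, TRIM21 and DDX60 had control levels that were not shown to differ between any pair of lines, with ranges of 0.16 and 0.26.

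**Figure D5:**
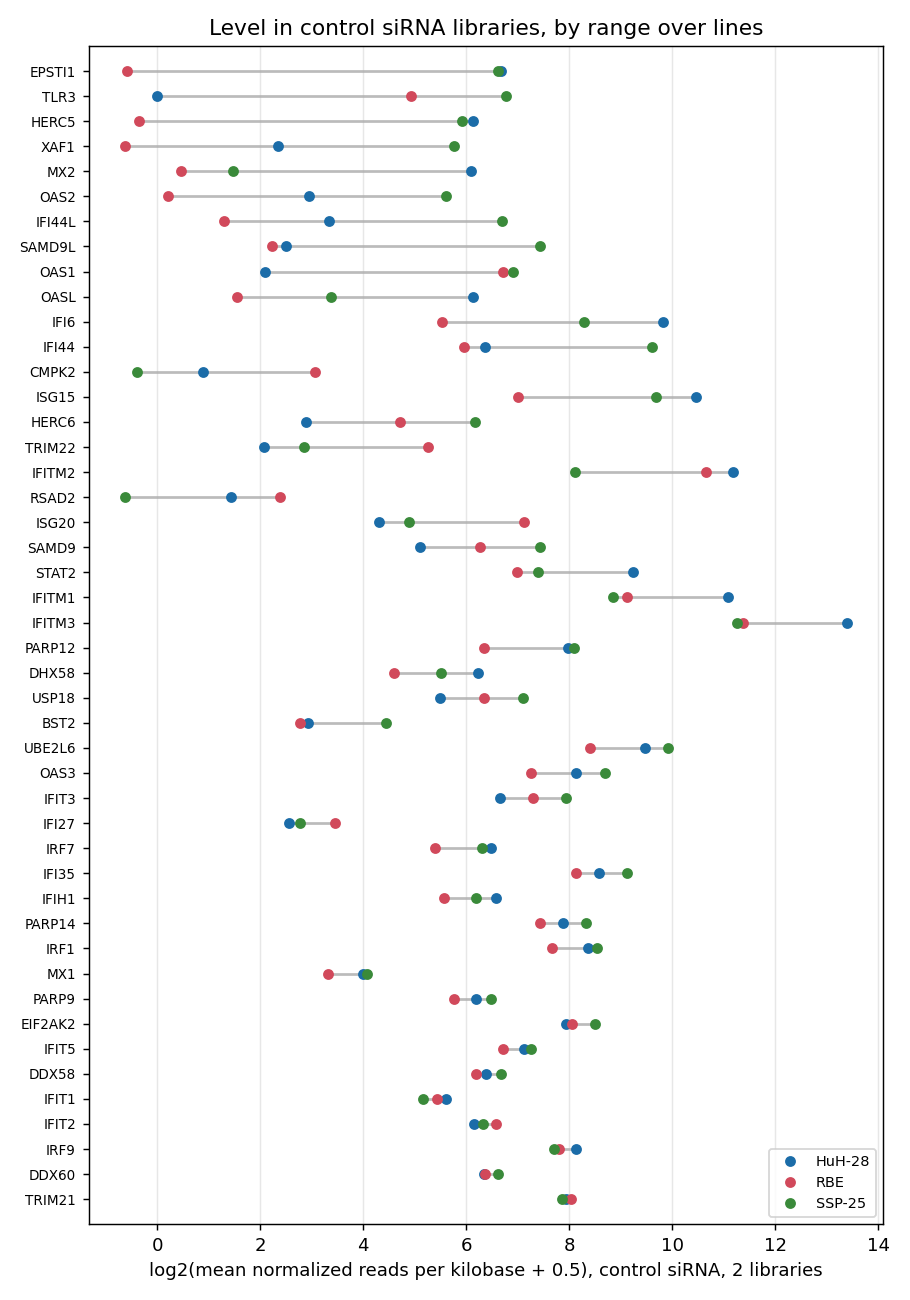
Log2 of the mean level plus 0.5 in the 2 control siRNA libraries of each line, for each of the 46 members, ordered from the widest range over lines (EPSTI1, 7.29) at the top to the narrowest (TRIM21, 0.16) at the bottom. RBE is the lowest point for 25 members, a rank not worked out for all genes. EPSTI1, HERC5 and XAF1 lie near the left edge in RBE while HuH-28 or SSP-25 is high.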

How the data were processed

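RNA from HuH-28, RBE and SSP-25 cells was sequenced as single 40-base reads from TruSeq V2 libraries. The authors deposited normalized reads per kilobase for each library, used here as a signal on a common scale, with length already divided out. The table holds no counts, so depth and counting error are unknown. TopHat 1.2.0, edgeR and hg19 appear in the submitters' processing notes, while the methods of the study describe NextGENe and RefSeq mRNA, and the sources used here do not say which software produced the table. The members and gene lists were chosen with earlier results of these data known.

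Of 18815 rows, 17 repeated rows were left out, and 28 rows hold a date in place of a symbol. Log2(signal + 0.5) was fitted with limma 3.58.1 in R 4.3.3, with a mean for each of 6 groups and an eBayes trend, over the 16146 genes at 1 or more in at least 2 libraries, with Benjamini-Hochberg adjustment over these genes. The contrasts were knockdown minus control within each line and on average, an F test between lines, and differences between control libraries of the lines. Passing meant an adjusted p under 0.05. A two-sided exact permutation of siRNA labels within lines was run for single members. The script was tested on simulated data. Values were given per library for the 10 members with the smallest p on average, up to 3 per line and for the F test, the 6 with the widest range over lines, the 3 with the highest mean and up to 6 other pathway genes. Other members given with values were chosen after their values were seen. Alternatives were other pseudocounts, filters, scalings and variance models, a replicate block, each line alone, and leaving out each library or line. Gene overlaps come from GENCODE v29 (GRCh38), and the table itself has no coordinates. Read counts were not analysed here.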

Additional observations from a re-analysis of the deposited data

Results flagged for a closer look

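For 15 of the 46 members the change with LKB1 siRNA differed between the 3 lines by limma's F test, adjusted over all genes. That share was near the 28.2% of all genes that passed. Values are log2 fold changes, LKB1 siRNA minus control siRNA, in HuH-28, RBE and SSP-25 in that order. IRF1 had -0.04, -0.26 and -0.88 (adjusted p = 0.00025). IFI35 had 0.12, -0.16 and -0.84 (adjusted p = 0.00044). IRF7 had 0.26, -0.23 and -0.92 (adjusted p = 0.013), and UBE2L6 had -0.24, 0.05 and -0.54 (adjusted p = 0.01). PARP12 had -0.01, 0.13 and -0.32 (adjusted p = 0.036). In these 5 genes SSP-25 had the lowest value.

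In a further 7 genes RBE had the highest value. HERC5 had -0.69, 0.93 and -0.44 (adjusted p = 0.0016), and DDX58 had -0.16, 0.86 and 0.17 (adjusted p = 0.0046). TRIM22 had -0.94, 1.36 and -0.54 (adjusted p = 0.0051), and OAS2 had -1.11, 0.59 and -0.55 (adjusted p = 0.0054). OASL had -0.43, 1.62 and 1.07 (adjusted p = 0.0097), IFI44L had -0.51, 0.53 and 0.16 (adjusted p = 0.038), and IFITM3 had 0.35, 0.38 and -0.07 (adjusted p = 0.0067). HERC5 and OAS2 were below 2 in every RBE library, and TRIM22 was below 5 in every HuH-28 library. In the other 3, IFI44 had -1.20, -0.79 and -0.43 (adjusted p = 0.018), SAMD9L had -1.73, -0.58 and -0.17 (adjusted p = 0.023), and IFIT1 had -0.13, -0.93 and -0.29 (adjusted p = 0.036).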

How the results depend on the processing

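No direction turned round under any alternative. Of 34 values of named genes, 32 kept their direction and side of the threshold in every setting. The others were IFI35, whose average log2 fold change was -0.02 (adjusted p = 0.81) without SSP-25, and IFNAR2, 0.13 (adjusted p = 0.063) without RBE. Members passing in HuH-28 numbered 21, but 10 with the line fitted alone. Pathway genes outside the members that passed on average numbered 41, but 27 without SSP-25. Leaving out each library in turn gave 26 to 30 members on average over the lines, 11 to 21 in HuH-28, 19 to 23 in RBE, 14 to 20 in SSP-25 and 10 to 18 for the difference between lines. The 11 came without HuH-28 control replicate 1.

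The replicate numbers were not shown to pair the libraries of RBE and SSP-25, where deviations of same-numbered libraries correlated at 0 and 0.03. In HuH-28 the correlation was 0.43, so same-numbered libraries there shared a part of their deviations. The main fit did not model this. With the replicate block, 29 members passed on average, 21 in HuH-28, 24 in RBE, 18 in SSP-25 and 21 for the difference between lines, in place of 15, and no named value lost its call.

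The depth behind the signal is unknown, and levels near 1 or below have no known counting error. Line, medium and transfection cannot be told apart in levels between lines.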

Other observations

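Of the 26 further targets of interferon outside the 46 members, 14 fell and 7 rose on average over the lines, with a median log2 fold change of -0.22. Over all genes 25.2% fell and 27.3% rose, so the share that rose was near that of all genes, and the median was 0.03. Those past an absolute log2 fold change of 1 were CCL5 and RTP4, named after their values were seen. CCL5, a chemokine that draws T cells, had levels of 50.7 and 46.5 with LKB1 siRNA in HuH-28 against 83 and 100 with control siRNA. It did not pass there (log2 fold change -0.90 ± 0.54, adjusted p = 0.25 by limma), with an SE pooled over lines near 0. In RBE CCL5 was at 0 and 0.0118 against 1.55 and 0.873 (-1.73 ± 0.54, adjusted p = 0.029) and in SSP-25 at 0.0635 and 0 against 5.19 and 0.821 (-2.37 ± 0.54, adjusted p = 0.006), so it fell in these lines at levels near 0. RTP4, a Golgi chaperone and interferon target, had levels of 14.4 and 18.3 against 39.7 and 31.6 in SSP-25 and fell there (-1.10 ± 0.34, adjusted p = 0.027). It also fell in RBE, at low levels (0 and 0.0132 against 2.83 and 1.06, -2.17 ± 0.34, adjusted p = 0.00069), and did not pass in HuH-28 (-0.55 ± 0.34).

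TMEM173 encodes the DNA-sensing adaptor STING, and NLRC5 is an activator of MHC class I genes. Both had their highest log2 fold change in RBE, where their levels were low. TMEM173 was at 15.5 and 17.2 with LKB1 siRNA there, against 6.61 and 5.79 with control siRNA (1.33 ± 0.12, adjusted p = 1.5e-05). TMEM173 passed in no other line. NLRC5 was at 46.1 and 51.7 in RBE, against 17.7 and 21.1 (1.31 ± 0.11, adjusted p = 9.6e-06). It also rose in SSP-25 (172 and 179 against 154 and 132, 0.30 ± 0.11, adjusted p = 0.046). In HuH-28 NLRC5 was at 384 and 372 against 315 and 308 and did not pass (adjusted p = 0.076). These 2 genes were named after their values were seen.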
